A study of Drosophila melanogaster with 2 samples.

Results

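Of the thresholded peaks of the fly protein CG12768, which numbered 3362 at promoters and 2704 outside them, 296 had their summit inside an annotated exon and more than 500 bp from every protein-coding transcript start. They are the exonic peaks outside promoters, and they made up 4.88% of the list (95% Wilson interval 4.37 to 5.45) and 10.9% of the summits outside promoters. By the kind of exon, 66 summits lay in a 5′ UTR, 46 in a coding exon, 83 in a 3′ UTR and 101 in another exon, that is, an exon of an RNA that is not translated or of a pseudogene. A summit in several kinds of exon was given to the first in that order. The choice used positions only, not signal. A peak is described here by its summit, the position within the peak that the authors deposited with it.

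The material was whole adult male *Drosophila melanogaster* of 1 transgenic line, age unknown, that stably carries CG12768 fused to GFP at its C terminus. Sonicated chromatin of 200 to 800 bp was immunoprecipitated with anti-GFP. There were 2 biological replicates of this 1 group and no second condition, so shares and densities are given with counting intervals and no test between conditions exists. Whole flies mix all tissues, so binding in more cells and stronger binding per cell cannot be told apart. The sources used here do not say which promoter drives the fusion. A mock immunoprecipitation with the GFP antibody was not analysed here. The lists hold no read counts, so depth is unknown. The signal value of each peak is the authors' own, of unstated scale, and orders peaks only inside 1 list.

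CG12768 belongs to the family of proteins with a MADF domain, a DNA-binding fold related to that of Myb proteins and known in flies from the activator Adf1. Proteins that bind DNA are most often mapped to promoters and enhancers, and enhancers lie mainly in introns and between genes. Exons are a mixed territory. 5′ UTR exons lie near starts and often hold promoter-proximal elements, coding exons are constrained by the protein they encode, and 3′ UTR exons lie at gene ends, which in the compact fly genome can be close to the start of the next gene. Exons of long non-coding RNAs (lncRNAs) and small RNA genes can themselves be promoters or enhancers, since the rule measured distance from protein-coding starts only.

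The sequences below, from the dm6 assembly, show summits among the strongest of each class, with the summit base in capitals. Each is 30 bases, 5′ to 3′ on the strand of its host gene. The first is in a lncRNA, the second in the small nuclear RNA that holds the elongation factor P-TEFb inactive, the third in a heat-inducible nuclear lncRNA, the fourth in a 5′ UTR, the fifth in a 3′ UTR and the last in a coding exon.
lncRNA:Vinr, chrX:12751302-12751331, plus strand: gaaattttgaaataTaaattttgatatatg
snRNA:7SKa, chr3R:7474769-7474798, minus strand: gcacggtcatgcaccCccgatccgtcgccc
lncRNA:Hsromega, chr3R:21296324-21296353, plus strand: ttcttagacattatAtgtgtgcatattcag
cbt, chr2L:479106-479135, minus strand: tggacttggcaccacTaggaaaaaacaaca
Lsd-2, chrX:15069524-15069553, minus strand: cctcaggatgagcccCcgccttcggcgtaa
Dab, chr3L:16714252-16714281, plus strand: ccaatctctcgttgGccagcacctttggcg

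The next set shows the short words that the results on sequence turn on, in capitals, on the host strand: GAGAGAG or its complement in 5′ UTR peaks of baz, Pdp1 and skd, CACACAC or its complement in spen, GCNGCNGC in coding-exon peaks of Dab, B52 and Cnot4, and TGANTCA in the 3′ UTR peak of by.
baz, chrX:17178789-17178818, plus strand: gcgatcttgcgCTCTCTCtctcgctctttc
Pdp1, chr3L:7855063-7855092, minus strand: ccctctctctctCTCTCTCttatacgggaa
skd, chr3L:21025231-21025260, minus strand: gtgtgtgtgtgtGAGAGAGtattgctgtgt
spen, chr2L:160801-160830, plus strand: ataaatactgcGTGTGTGcgcggactccaa
Dab, chr3L:16714268-16714297, plus strand: cagcacctttgGCGGCGGCagcggcgcggc
B52, chr3R:13666066-13666095, plus strand: tcactacttccGCTGCAGCaaatcgcgtga
Cnot4, chr2L:10399891-10399920, plus strand: atggcaaagagGCGGCTGCcactgcgacca
by, chr3R:9528640-9528669, minus strand: tggaaacgccacTGATTCAtatttgtttat

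Exons were sparse in summits for their length, and the scarcity lay in coding exons and 3′ UTRs. Exons held 10.9% of the summits outside promoters and 23.5% of the sequence there. Coding exons held 2.47 summits per Mb (exact Poisson interval 1.81 to 3.29, over 18.6 Mb), which was 0.0666 of the 37.1 per Mb of introns (35.5 to 38.8, over 53.4 Mb). 3′ UTRs held 13.7 per Mb (10.9 to 17.0), near the 11.5 per Mb of intergenic sequence (10.4 to 12.6) with all distances pooled. 5′ UTRs held 62.2 per Mb (48.1 to 79.1) and other exons 47.3 per Mb (38.5 to 57.4), both above introns, although these classes cover only 1.06 and 2.14 Mb.

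The high density of 5′ UTRs went with their position. From 500 to 1000 bp from a protein-coding start, 5′ UTRs held 101 summits per Mb (73.9 to 136) and introns 117 (107 to 128). From 1000 to 2000 bp the values were 54.4 (29.0 to 93.0) and 78.0 (71.3 to 85.2), and beyond 2000 bp they were 21.2 (9.14 to 41.7) and 23.7 (22.3 to 25.2). In each of these 3 bands the 5′ UTR value was below that of introns and their intervals overlapped. Coding exons stayed low at every distance, with 2.62, 3.64 and 1.74 per Mb in the same bands, and no interval of theirs reached above 5.68. 3′ UTRs held 16.9 (9.46 to 27.9), 22.2 and 9.50 per Mb, against 47.5 (38.6 to 57.8), 28.15 and 7.31 between genes. They thus stood below intergenic sequence nearest to starts, and the intervals of the 2 classes overlapped in the farther bands. Other exons held 52.2, 85.9 and 38.2 per Mb, so that they stood below introns nearest to starts, with intervals of 27.0 to 91.1 and 107 to 128, and above them beyond 2000 bp, with intervals of 29.2 to 49.2 and 22.3 to 25.2.

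**Figure D1:**
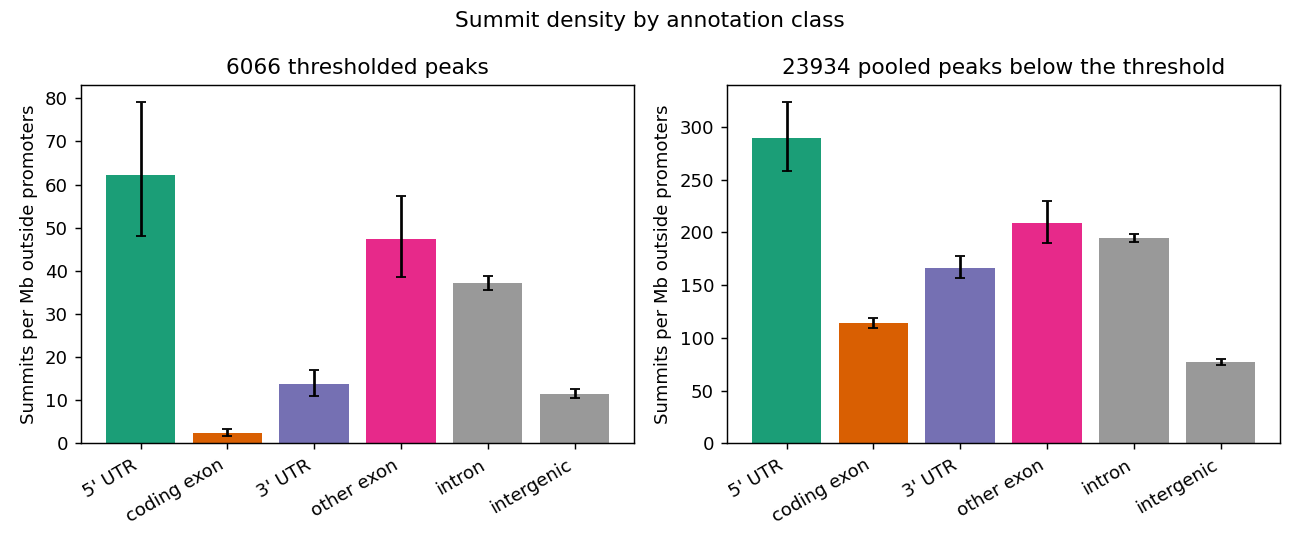
Summits per Mb of sequence outside promoters for 4 exon classes, introns and intergenic sequence, in the thresholded peaks (left) and the pooled peaks below the threshold (right); bars are densities and lines exact Poisson 95% intervals, with different vertical scales. Coding exons are lowest on the left at 2.47 per Mb against 37.1 for introns, and reach 114 against 195 on the right.

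The scarcity in coding exons was far smaller among pooled peaks that did not pass the threshold. The authors' pooled list holds 23934 further peaks that did not enter the thresholded list, and such lists include background by design. There, coding exons held 2128 summits, or 114 per Mb, which was 0.585 of the density of introns (195 per Mb). Of the exonic summits, coding exons made up 15.5% in the thresholded list (11.9 to 20.1) and 54.7% below the threshold (53.1 to 56.2). All exons together took 16.3% of the summits below the threshold. The signal of those peaks was not compared with that of the thresholded list. Within the thresholded list the 500 strongest peaks included 16 exonic summits (3.20%, 1.98 to 5.13), and the share was 4.93% from there to rank 2000, 4.15% on to rank 4000 and 5.95% (5.01 to 7.06) after that. Of the summits outside promoters, exonic ones made up 9.76%, 12.2%, 9.24% and 11.9% in these tiers, with no steady trend. Coding exons held 0, 7, 15 and 24 of them.

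The exonic peaks had about the signal of other peaks outside promoters. Their median was 206 (order-statistic interval 192 to 222), against 211 in introns, 216 between genes, 235 at promoters and 223 over all peaks. By class the medians were 203 for 5′ UTRs (180 to 248), 184 for coding exons (174 to 216), 185 for 3′ UTRs (171 to 205) and 262 for other exons (217 to 302). The classes overlapped widely, from a shared floor near 141 up to 410 in coding exons, 1010 in 3′ UTRs, 1377 in 5′ UTRs and 1575 in other exons. The strongest coding-exon peak was thus weaker than the leading peaks of every other exon class.

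**Figure D2:**
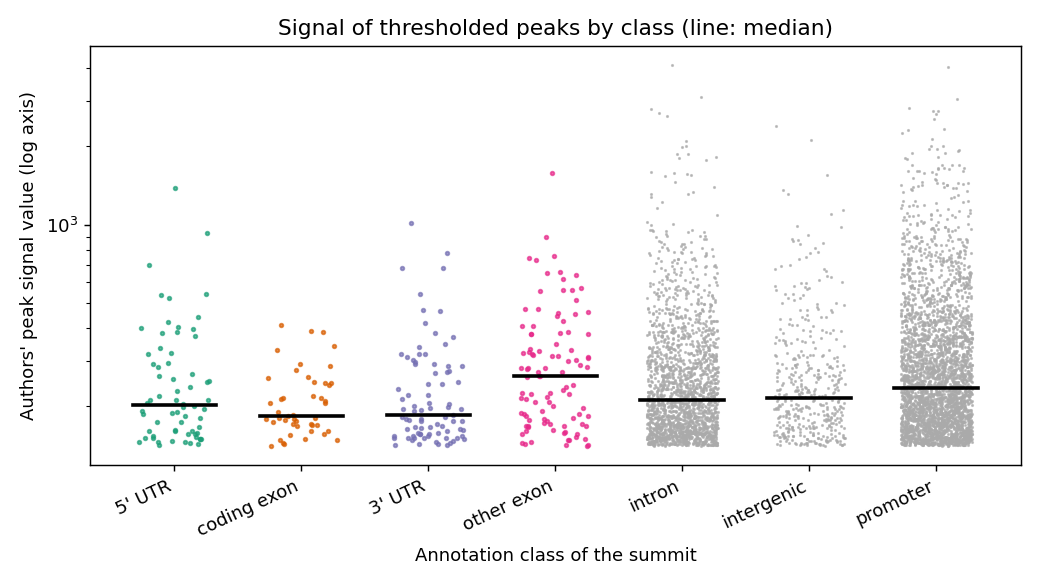
Signal value of each thresholded peak (log axis) by the annotation class of its summit, with 1 point per peak and a line at the median. Other exons have the highest median of the exon classes at 262, and coding exons have no peak above 410.

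5′ UTR summits lay mostly in first exons, close outside the promoter limit. Of the 66, 40 were in the first exon of the host transcript, 45 were within 1000 bp of a protein-coding start, and 38 were also in an intron of another transcript of the same gene. The median distance to a start was 810 bp. Of the 1.06 Mb of 5′ UTR sequence outside promoters, 0.444 Mb also lay within 1000 bp of a start. How much of that sequence is in first exons was not measured. A summit at a promoter lay within 1000 bp of 19 of the 66 summits (28.8%), against 10.4% of all summits outside promoters. Nearest the limit, the summit in Syp, which encodes an RNA-binding protein, was 501 bp from a start with a signal of 254, and the 3′ UTR summit in CG44008 was 502 bp away with 182. Just inside promoters, and so left out, were 5′ UTR summits in shn at 499 bp with 378 and in another gene at 498 bp with 161.

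The 6 leading 5′ UTR peaks had pooled signals of 523 to 1377. The peak in cbt, which encodes the zinc finger factor Cabut, had a pooled signal of 1377, with 880 in replicate 1 (rank 24) and 511 in replicate 2 (rank 180). The peak in spen, which encodes an RNA-binding transcription corepressor, had 931, with 560 (rank 109) and 370 (rank 386). Both ranked among the 500 strongest of each replicate and higher in replicate 1. Kr-h1, which encodes a factor induced by juvenile hormone, had 534, with 371 (rank 296) and 165 (rank 1642). Pdp1, which encodes a clock factor, had 523, with 397 (rank 262) and 135 (rank 2215). These last 2 fell far back in replicate 2. The other leaders were Fbl6, with 699 (ranks 493 and 347), and baz, which encodes the polarity scaffold Bazooka, with 541 (ranks 809 and 586), and both ranked higher in replicate 2.

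The coding-exon peaks were few, modest and isolated. In 40 of 46 the summit was exonic in every annotated transcript of the host, and the median exon was 587 bp long. Only 5 of 46 (10.9%) had another summit within 1000 bp, against 34.3% of all thresholded peaks, 42.6% in other exons and 39.4% in 5′ UTRs. 3′ UTR summits were also below all peaks, at 22.9%. Their median distance to the next summit was 2409 bp, near the 2601 bp of coding exons. The strongest was in Dab, which encodes the adaptor Disabled, with 410 pooled, 279 in replicate 1 (rank 627) and 136 in replicate 2 (rank 2185). Est-Q, an esterase gene, had 391, with 304 (rank 491) and 89.4 (rank 4071). In each of these the rank in replicate 1 was the better one by more than 1000 places. B52, which encodes a splicing factor of the SR family, had 387, with 246 (rank 789) and 151 (rank 1848). MME1, for a mitochondrial magnesium exporter, had 330 (ranks 1051 and 3213), and GramD1B had 292 (ranks 1453 and 3187). These 5 peaks all ranked better in replicate 1.

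3′ UTR summits lay near gene ends, where 3′ UTRs lie by definition. The share of 3′ UTR sequence that near to an end was not measured. Of 83, 76 were in the last exon, 57 were within 500 bp of the host transcript's end (median 304 bp), and 11 were within 1000 bp of the start of another protein-coding gene. The strongest was in Lsd-2, which encodes the lipid droplet protein perilipin 2, with a pooled signal of 1010, 677 in replicate 1 (rank 63) and 320 in replicate 2 (rank 483). The peak in by, which encodes the focal adhesion protein tensin, had 780, with 358 (rank 329) and 429 (rank 289), and so stood at like ranks in both. APC7, for a subunit of the anaphase-promoting complex, had 682, with 252 (rank 745) and 430 (rank 288), and its summit was 573 bp upstream of a start of the neighbouring gene pigs. The summit in a gene's 3′ UTR can thus be nearer to another gene's start than to its own. The remaining leaders were stas with 684, CG12851 with 540 and CG30159 with 468.

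The other exons were mainly those of lncRNAs, at 81 of 101 summits in 68 genes, with a median signal of 272. Antisense RNAs held 10 summits with a median of 185. At 66 of the 101 positions no protein-coding transcript was annotated, and 35 lay in an intron of a protein-coding gene. The strongest exonic peak of all was in lncRNA:Vinr, with a pooled signal of 1575, 635 in replicate 1 (rank 80) and 912 in replicate 2 (rank 51), and it lay 4999 bp from the nearest protein-coding start. lncRNA:CR46035, within an intron of osa, had 747 (ranks 678 and 216), lncRNA:CR31840 had 731 (ranks 343 and 365) and lncRNA:CR43626 had 658 (ranks 672 and 354). Of these 4 lncRNA peaks, 3 ranked better in replicate 2 and the peak in lncRNA:CR31840 in replicate 1.

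Many of these summits were at starts of non-coding transcripts, which the rule did not use. Of the 296 exonic summits, 69 (23.3%, 18.9 to 28.5) lay within 500 bp of a non-coding start, against 6.8% of all summits outside promoters. The share came from other exons, with 59 of 101 (58.4%), against 4 of 66 in 5′ UTRs, 1 of 46 in coding exons and 5 of 83 in 3′ UTRs. Much of the sequence of other exons is itself that near, at 1.04 of 2.14 Mb. The density of summits in it was 56.8 per Mb (43.2 to 73.2), against 38.3 per Mb (27.6 to 51.7) in other exons farther away, and these intervals overlap. Signal was no higher at these starts. The 59 summits near a non-coding start had a median of 225 and the 42 farther away a median of 280, with ranges that overlapped (142 to 898 and 141 to 1575).

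Genes of small stable RNAs contributed a few members. The peak in snRNA:7SKa had a pooled signal of 898, with 571 in replicate 1 (rank 102) and 322 in replicate 2 (rank 476). snoRNA:Psi18S-176, which guides pseudouridylation of ribosomal RNA, had 759, with 503 (rank 146) and 253 (rank 775). Both were well above the median of 262 for other exons. snRNA:U2:34ABb, a gene for the spliceosomal U2 RNA, had 238, tRNA:Gln-CTG-4-1 had 178 and snoRNA:Me18S-C1366 had 149, near the floor of the list. All 5 summits lay within 500 bp of the RNA's own start. These 5 were the strongest in tRNA, snRNA and snoRNA genes. Other short RNA genes with members were RNaseMRP:RNA, with 2 summits of which the stronger had 455, and mir-3642, with 1 at 312. These summits too lay within 500 bp of a non-coding start. U2 and glutamine tRNA genes have near-identical copies in the genome, and how reads shared by copies were placed is not given in the sources used here, so those 2 positions are uncertain.

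Some hosts held several exonic summits. Of 266 host genes, 239 had 1 and 7 had 3 or more. Lsd-2 had 4, all in its 3′ UTR, with signals of 1010, 382, 195 and 176, and lncRNA:CR44662, which lies close by on X, had 4 of 172 to 262. spen had 3 in the same 5′ UTR exon, with 931, 401 and 294. lncRNA:Hsromega, the heat-inducible RNA of the omega speckles, had 3 with 654, 282 and 224, and lncRNA:CR44619, which overlaps lncRNA:Vinr on X, had 3 with 558, 407 and 282. In Lsd-2, spen and lncRNA:Hsromega the leading summit had over 2 times the signal of the next. Since 3 peak intervals held 2 members each, the 296 summits came from 293 distinct intervals, and neighbouring summits of 1 gene are not independent.

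Host genes were often bound at their own starts as well. Exonic summits lay in 181 protein-coding genes, 1.3% of the 13945 annotated, and 95 of the 181 (52.5%, 45.2 to 59.6) had a thresholded summit within 500 bp of one of their own starts, against 25.9% of all protein-coding genes. The share was alike in the classes, at 54.7% of hosts for 5′ UTRs, 51.1% for coding exons and 54.5% for 3′ UTRs. Hosts were long, with a median of 6491 bp against 2166 bp over all protein-coding genes, and long genes were bound at a start more often. With protein-coding genes in 4 bins of equal number by length, 58 of 103 hosts (56.3%) were bound in the longest bin against 37.1% of all, and in the next bin 26 of 47 (55.3%) against 31.5%. In the bin below, 9 of 27 (33.3%) were bound against 23.5%, and the shortest bin held only 4 hosts.

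Lists of genes by role held few hosts each. Of the transcription and chromatin regulators, 5 of 76 had an exonic summit (6.58%), with cbt at 1377 followed by crol, a zinc finger gene, at 219 and srp, the GATA factor gene, at 211. Of the ecdysone and circadian genes, 3 of 28 did, with Pdp1 at 523, cwo, a clock repressor gene, at 250 (ranks 1668 and 3770) and Eip78C, a nuclear receptor gene, at 199 (ranks 2369 and 8444). Translation factors and ribosomal proteins had 0 of 41. Heat shock and chaperone genes had 2 of 30, with Hsc70-4 at 191 and Hsf, the heat shock factor gene, at 141, the weakest peak of the whole list. Insulin, TOR and metabolic genes had 2 of 49, Lsd-2 at 1010 and the kinase gene Pi3K92E at 382. The signalling genes had 1 of 52, the Hippo kinase gene wts at 336, the neuronal genes 1 of 50, sif at 167, and the cytoskeleton and muscle genes 1 of 42, the spectrin gene kst at 150. Over all protein-coding genes the share was 1.3%. No list held more than 76 annotated genes, so 1 host is enough to put a list above that share. The lists were also chosen with earlier results known, and enrichment was not tested.

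The exonic peaks were stronger in replicate 1 by rank. Each replicate's list was ranked by its own signal. Of its peaks that overlapped a thresholded peak by 1 bp or more, the one with the nearest summit was taken. Of 292 exonic peaks found in both full lists, 199 ranked better in replicate 1 (68.2%, 62.6 to 73.2), against 49.8% of all thresholded peaks, 45.5% at promoters and 54.2% in introns outside promoters. Median ranks were 2700 in replicate 1 and 4348 in replicate 2, while over all peaks they were 3087 and 3050. All 4 classes leaned the same way, with 37 of 45 in coding exons (82.2%, 68.7 to 90.7), 43 of 65 in 5′ UTRs (66.2%, 54.0 to 76.5), 54 of 82 in 3′ UTRs (65.9%, 55.1 to 75.2) and 65 of 100 in other exons (65.0%, 55.2 to 73.6).

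Over the exonic peaks together, the lean was present at every level of signal. In 4 bins of equal number by signal, from the lowest to the highest, 60.2%, 69.3%, 73.9% and 71.7% of exonic peaks ranked better in replicate 1. The shares were 53.2%, 51.2%, 50.8% and 44.1% of all peaks and 56.0%, 53.35%, 55.1% and 51.8% of intron peaks outside promoters. In the lowest bin the lean was not in every class, with 10 of 21 in 5′ UTRs and 18 of 32 in 3′ UTRs. Among as many leading peaks of each replicate taken alone as the thresholded list holds, replicate 1 had 336 exonic summits and replicate 2 had 271, and the coding exons had 58 and 35. The coding-exon density was low in both, at 3.11 and 1.88 per Mb, or 0.0807 and 0.0520 of that of introns. Depth and any other difference between the libraries were not recorded in the lists, so their part in this lean was not tested.

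**Figure D3:**
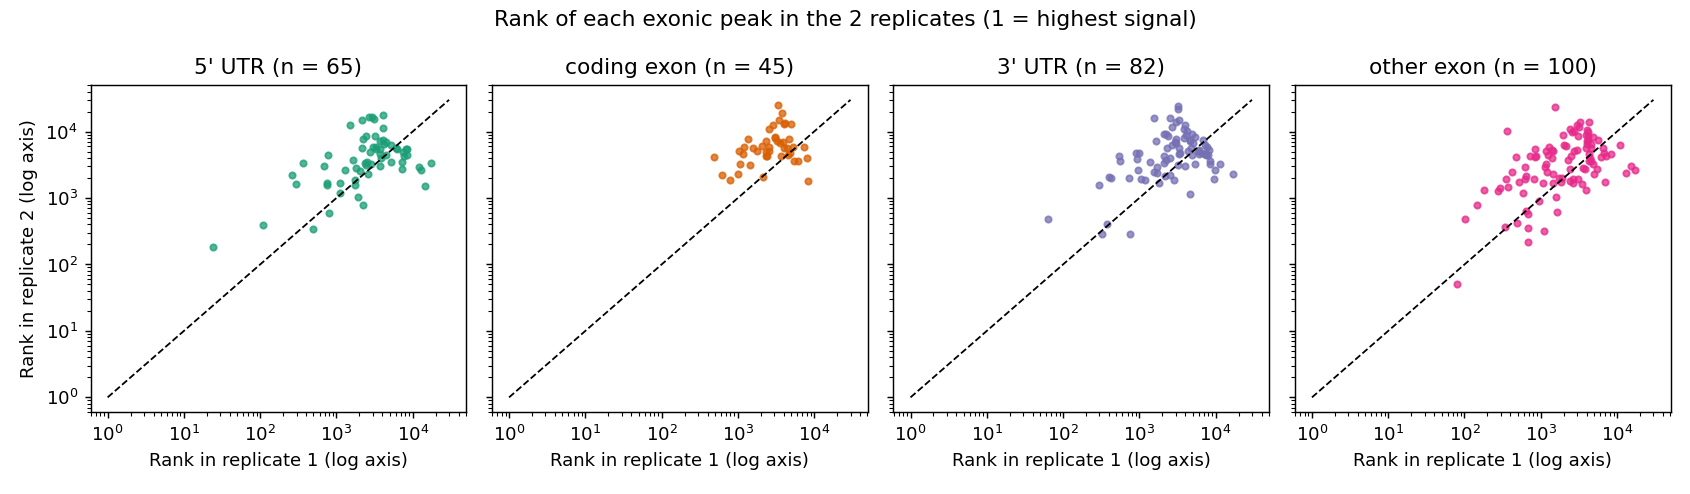
Rank of each exonic peak in replicate 1 (horizontal, log axis) and replicate 2 (vertical, log axis) by exon class, where 1 is the highest signal and the dashed line marks equal ranks. Points above the line ranked better in replicate 1, as did 37 of 45 coding-exon peaks and 199 of all 292.

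Whether an exonic peak counted as found in both replicates depended on the overlap asked for. A peak overlapping by 1 bp or more among as many leading peaks of each replicate as the thresholded list holds was present in both for 184 of 296 (62.2%, 56.5 to 67.5), against 67.7% of all thresholded peaks. With reciprocal overlap over 50% of each peak the count was 135 of 296 (45.6%). The share over all thresholded peaks at that setting is not given here, so this value describes the members alone. By class, at 1 bp, the counts were 39 of 66 in 5′ UTRs, 26 of 46 in coding exons, 50 of 83 in 3′ UTRs and 69 of 101 in other exons. Of the rest, 75 were found in replicate 1 alone, 36 in replicate 2 alone and 1 in neither, and for coding exons the split was 17 and 3. Over all peaks it was 1003 and 923.

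Peak shape differed between exon classes. The commonest peak was 444 bp wide with its summit at the centre, as were 70.8% of all thresholded peaks and 221 of the 296 exonic ones (74.7%). In coding exons 43 of 46 had this width (93.5%, 82.5 to 97.8) and in 3′ UTRs 71 of 83 (85.5%, 76.4 to 91.5), but in other exons 59 of 101 (58.4%, 48.7 to 67.5). A peak of fixed width places its summit at the middle, and 284 of the 296 peaks had at least 50% of their length in exons. The choice of summits inside exons, of median length 1042 bp, makes such a share likely. Only 13 of the 46 coding-exon peaks lay wholly in exons, against 62 of 83 in 3′ UTRs.

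Base composition at the summit differed by class. The median GC content of the 200 bp at the summit was 51.5% in coding exons, 44.0% in 5′ UTRs, 42.0% in 3′ UTRs and 44.5% in other exons, against 41.5% over all peaks and 40.5% at promoters. In coding exons the summit exceeded both flanks, centred 500 bp away, which had 46.2% and 48.8%, and in other exons it exceeded 38.0% on either side. The median exon was 587 bp long for coding exons and 747 bp for other exons, so flanks can lie outside the exon. The GC content of each class over its whole territory was not measured. In 3′ UTRs the summit matched its flanks of 42.0% and 41.0%. At promoters the order was the reverse, with 44.0% on both sides.

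The 10 words searched, on either strand in the same 200 bp, were not alike in their counts. TATCGATA, the DNA replication-related element of fly housekeeping promoters, was at 0 of 296 summits (Wilson upper bound 1.28%), against 2.74% of all peaks and 0.404% of intron peaks outside promoters. GGTCACAC, the core of Motif 1, another housekeeping promoter word, was at 1, against 1.68% of all peaks and 0.253% of those intron peaks. Both words were thus rare outside promoters in general. GAGAGAG, the word of GAGA factor, was at 29 (9.80%, 6.91 to 13.7), against 8.62% of all peaks and 4.39% in the flanks. CACACAC was at 38 (12.8%), against 11.2%. Over all 296, both repeats were about as frequent as at all summits. The GAGAGAG share was 5.24% (10 of 191) without members that lie in an intron of any transcript, an alternative chosen after seeing the data, and was 6.08% in a 100 bp window.

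Among the exon classes, 5′ UTRs held more of the GAGA and CA repeats than any other. GAGAGAG was at 16 of 66 5′ UTR summits (24.2%, 15.5 to 35.8), against 10.6% of their own flanks, and among them were the peaks of baz, Pdp1 and skd, whose sequences are printed above. CACACAC was at 18 of 66 (27.3%, 18.0 to 39.0), but 5′ UTR flanks were nearly as rich, at 21.2%. GAGAGAG was at 10 of 101 other-exon summits, 3 of 83 3′ UTR summits and 0 of 46 coding-exon summits (upper bound 7.71%).

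Coding exons held GCNGCNGC instead, the pattern that alanine codons in a row also give. It was at 13 of 46 summits (28.3%, 17.3 to 42.6) and in 19.6% of their flanks, against 37 of all 296 (12.5%) and 8.37% of all peaks, so the interval of the coding-exon share includes the flank value. CAGCAGCAG, which can overlap GCNGCNGC, was at 9 of 296 (3.04%), against 1.4% of all peaks and 3.72% of the members' own flanks. TGANTCA, the word of AP-1 factors, was at 17 (5.74%), against 5.14% of all peaks, and 8 of the 17 were in 3′ UTRs, among them the peak of by. These were 8 of 83 3′ UTR summits (9.64%, 5.0 to 17.9), against 2.41% of their flanks, and the interval includes the value over all peaks. CACGTG, an E-box, was at 7 against 3.03% of all peaks, AAAAAAAA at 33 against 11.8%, and GAANNTTC, a pair of heat shock units, at 13 against 4.78%. A word says nothing of whether a factor is bound there.

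**Figure D4:**
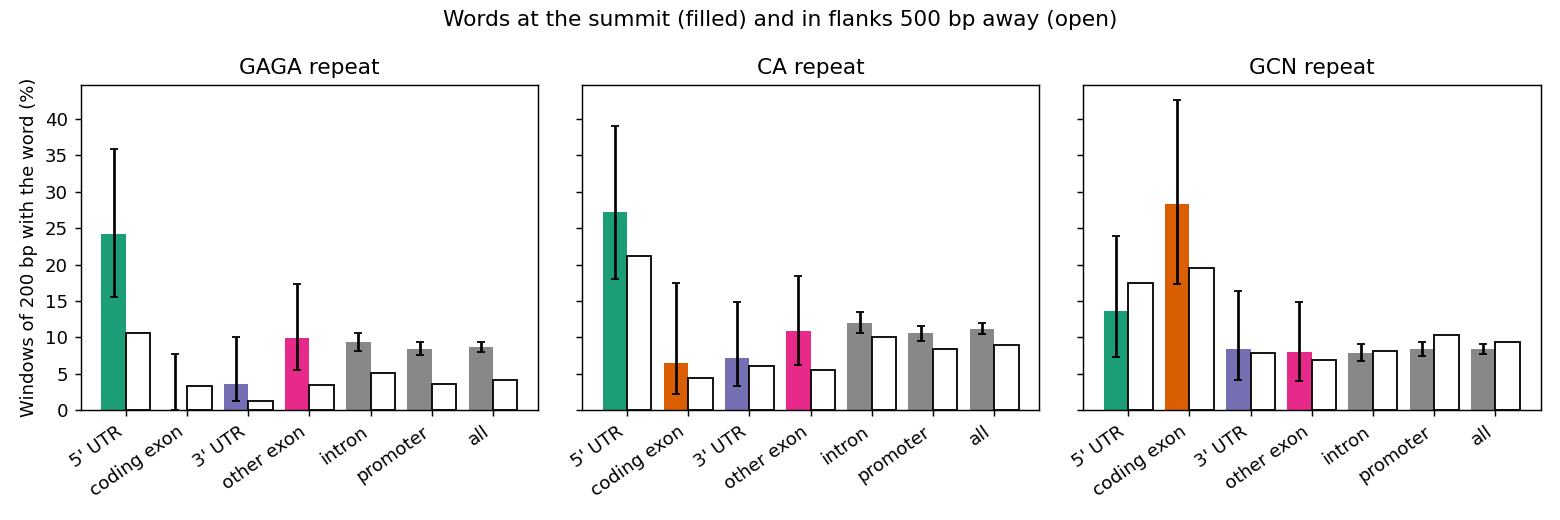
Share of 200 bp windows that hold the GAGA, CA or GCN repeat at the summit (filled bars, with Wilson 95% intervals) and in flanks centred 500 bp away (open bars), for the 4 exon classes, introns outside promoters, promoters and all thresholded peaks. GAGAGAG is at 24.2% of 5′ UTR summits and at no coding-exon summit, and GCNGCNGC is at 28.3% of coding-exon summits.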

How the data were processed

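The data are peak lists of chromatin immunoprecipitation from 2 biological replicates, per the labels. The authors deposited 1 list per replicate, 1 pooled list of 30000 peaks and 1 thresholded list of 6066 peaks made from both replicates, per the file headers and labels. Each deposited peak carries a signal value of the authors' caller, whose scale is not stated, and the −log10 of a q-value, which holds its highest value of 3.98 in 4776 peaks of the deposited thresholded list. Which aligner, caller, versions and reproducibility threshold were used is not given in the sources used here. The dm3 lists were not used.

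Summits were set on Ensembl release 115 (BDGP 6), without transposable elements, on 6 arms, each longer than its last peak end. A 5′ UTR took precedence over a coding exon, then came 3′ UTRs and other exons. Territories were counted per base outside promoters. Words were searched on both strands of 200 bp. Intervals (Wilson, exact Poisson, order statistics) are at 95% and cover counting error only. No test over samples was possible with 1 group, and peaks are not replicates. Positions are 1-based. The class and overlap code was checked on simulated positions. Calculations used Python 3.11.15, numpy 2.4.6, scipy 1.17.1 and matplotlib 3.10.9.

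The members and gene lists were chosen with earlier results of these data known. Named genes were the 6 strongest members of each class and the nearest 2 on either side of the 500 bp limit. Added to them were up to 5 hosts with 3 or more summits, up to 5 tRNA, snRNA and snoRNA genes by signal and up to 3 genes of each list. Of these, 1 coding-exon member is not reported here, and the gene of 1 summit at the limit is not named. Among the sequences printed, skd and Cnot4 fell outside this rule and were chosen after their values were seen, as holding the words in question. RNaseMRP:RNA and mir-3642 were named outside this rule as well. Alternatives were promoter distances of 250 and 1000 bp, stricter lists, 1 replicate alone, other overlap rules and a 100 bp word window.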

Additional observations from a re-analysis of the deposited data

How the results depend on the processing

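The medians and shares below are set against 296 members, a density ratio of coding exons to introns of 0.0666, a median signal of 206, 52.5% of hosts bound, 9.80% with GAGAGAG and 62.2% found in both replicates. Over the upper 50% of peaks by signal the members numbered 130, the density ratio was 0.0445, the median 322, the GAGAGAG share 13.8% and the share found in both replicates 96.2%. Over all peaks, the share found in both was 86.7% and 98.9% in the 2 upper of the 4 signal bins, among peaks ranked in both full lists. Over peaks at the highest −log10 q-value the median was 256 and the share found in both 78.6%; fewer and stronger peaks raise a median by construction. Taking each replicate's own list gave medians of 91.0 to 125, on that list's own scale. A promoter distance of 250 bp gave 39.9% of hosts bound and 1000 bp gave 63.2%, while 1000 bp gave a GAGAGAG share of 6.57%; a 1000 bp distance for the host's start alone gave 73.5%. Requiring reciprocal overlap over 50% of each peak gave 45.6% found in both, and using all peaks of each replicate gave 98.6%. A 100 bp window gave a GAGAGAG share of 6.08%. Other shares over all genes or all peaks at these settings are not given here, so such values describe the members alone. Leaving out members in any intron, an alternative chosen after seeing the data, left 191 with a GAGAGAG share of 5.24%. Also chosen then were leaving out members near non-coding starts and counting 1 member per interval. In all, 53 of the recomputed values stayed within their interval or within 1.5 times the count and 18 moved; the cause was not tested where none is given. No paired analysis was possible because there is 1 group. Depth is unknown, so what it limits cannot be given.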
